A study of Danio rerio with 6 samples.

Results

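The AP-1 and immediate early genes on the array were taken as the probesets whose platform symbol starts with fos or jun, or is atf3, egr1, egr2a, egr2b or egr3. The rule found 17 probesets of 10 genes among 15502 tested probesets, of which those with a symbol stand for 8793 genes. These were fosab with 4 probesets, fosl2 with 3, egr1 and jun with 2 each, and fosl1b, junba, junbb, atf3, egr2a and egr2b with 1 each. No probeset carried the symbol egr3. A probeset is a group of short probes that together give 1 value for a transcript, and some can match several transcripts or genes.

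AP-1 is a dimer of basic leucine zipper proteins, usually a Fos protein bound to a Jun protein, that binds DNA and switches target genes on or off. The genes for Fos, Jun, Atf3 and the Egr zinc finger proteins are called immediate early genes because they are transcribed within minutes of a stimulus from transcription factors already present in the cell, and their mRNAs are short-lived. Growth factors, wounding, stress, inflammatory cytokines and neuronal firing all induce them, and handling of animals can do so too.

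All 6 arrays were made from whole gnotobiotic zebrafish larvae of strain C32 at 6 days post-fertilization. In 3 pools the larvae had been kept germ-free throughout. In the other 3 they had been kept germ-free through day 3 and then carried the microbial community of conventionally raised zebrafish until day 6; these are called colonized here. Each pool held 28 to 80 larvae and was hybridised to an array of its own, and the spread among single larvae is not seen. In RNA from whole larvae, fewer cells of a type and less RNA per cell cannot be told apart.

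The values are normalized intensities on a linear scale, with array medians from 85.4 to 93.1. Intensities of different probesets depend on their probes and are not set against each other. Of 40 listed markers of larval tissues, 28 were measured, from the muscle creatine kinase gene ckma to the neuronal gene elavl3 and the skin keratin gene krt4. The lowest mean of these markers, 31.6, was that of mitfa, a pigment cell factor, and detection was not tested. Their summed intensity was 63091 to 70040 in germ-free and 67272 to 72430 in colonized pools. The liver gene tfa was called higher, and the enterocyte gene fabp2 and the cone gene gnat2 lower. The germ-free pools were less alike than the colonized ones: mean correlations with the other arrays of the group were 0.977 to 0.985 against 0.988 to 0.990. Germ-free replicate 3 had the lowest of these, and the number that ends its label is out of run with the other 5. The labels do not say what this number stands for. As a sign of RNA quality, the acta1 control probeset at the 3' end was set over that at the 5' end; the log2 of this ratio was 2.35 to 2.64 in germ-free and 2.79 to 3.00 in colonized pools, without overlap. It differed between the groups as the genes described here did, and its part in their differences was not tested. In germ-free replicates 1, 2 and 3 this log2 ratio was 2.35, 2.64 and 2.47. In colonized replicates 1, 2 and 3 it was 2.98, 3.00 and 2.79.

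Colonized larvae had more fosab and junbb mRNA than germ-free larvae. The fosab gene, a zebrafish gene for c-Fos, rose 2.34-fold and 2.29-fold in mean intensity on 2 of its 4 probesets. The junbb gene, for a JunB protein, rose 1.65-fold on its single probeset. The other 14 probesets were not called. With all 6 arrays both genes were called, and without germ-free replicate 1, germ-free replicate 2 or colonized replicate 1 neither was. Colonized pools lay above germ-free pools without overlap on all probesets of fosab, jun, junba, junbb and atf3, 5 of the 10 genes. This held for 1057 of the 8793 genes with a symbol. The groups overlapped for the egr genes and fosl1b, and for fosl2 they were apart on 1 of 3 probesets.

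Differences were tested with limma on log2(intensity + 32), with p-values adjusted by the Benjamini-Hochberg method over all 15502 probesets, and a probeset was called at an adjusted p under 0.05. By this rule 3 of the 17 probesets were higher in colonized larvae, where 1.28% of all probesets were. None was lower, where 0.413% of all were. Calls in either direction made up 1.7% of all probesets. At an unadjusted p under 0.05, 11 of the 17 were higher, where 8.54% of all probesets were. In either direction the number was also 11, where 13.2% of all probesets passed. In 10 of the 17 every colonized pool lay above every germ-free pool, which held for 12.5% of all probesets, and in 0 every colonized pool lay below, which held for 7.08%. The median log2 difference of the 17 was 0.39, and that of all tested probesets 0.02. Several of the 17 are of the same gene, so they are not independent. Of the 13 members other than fosab, 1 was called and 7 had an unadjusted p under 0.05. In 6 of them every colonized pool lay above every germ-free pool.

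The fosab gene was measured by 4 probesets. They are named here by the endings of their identifiers, which belong to 1 sequence cluster of the array design. Probesets A1_at and A1_a_at carry the same cDNA accession, so they are not independent measurements, and S1_at carries another. For S1_a_at the annotation gives no accession. In Affymetrix names the ending _a_at marks probes that can match several transcripts of a gene.

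On fosab probeset A1_at the intensity was 99.5, 99.6 and 140.5 in germ-free replicates 1, 2 and 3, and 265, 202 and 326 in colonized replicates 1, 2 and 3. All colonized pools lay above all germ-free pools, with germ-free replicate 3 the nearest of its group. The means were 113 ± 23.6 and 264 ± 62.2 (SD, n = 3 pools each), a log2 difference of 1.02 ± 0.16 (SE; limma adjusted p = 0.0115).

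On fosab probeset A1_a_at, of the same cDNA, the germ-free pools had 47.5, 37.1 and 75.8 and the colonized pools 132, 90.8 and 144. The groups were again apart, and the gap between the highest germ-free and the lowest colonized pool was small beside the spread within each group. The log2 difference was 0.86 ± 0.18 (limma adjusted p = 0.0404).

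On fosab probeset S1_a_at the germ-free pools had 73.6, 60.4 and 113 and the colonized pools 156, 122 and 209. The groups did not overlap, but germ-free replicate 3 and colonized replicate 2 were close. The difference of 0.77 ± 0.19 on the log2 scale was not called (limma adjusted p = 0.0861).

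On fosab probeset S1_at the values were 158, 140 and 171 in germ-free pools and 266, 197 and 271 in colonized pools. The groups did not overlap here either. The log2 difference was the smallest of the 4 fosab probesets, at 0.55 ± 0.13, and was not called (limma adjusted p = 0.0756).

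All 4 probesets thus placed the pools in nearly the same order: germ-free replicate 3 was the highest germ-free pool on each, colonized replicate 2 the lowest colonized pool and colonized replicate 3 the highest. The 4 log2 differences ran from 0.55 to 1.02. For the 6 pairs of fosab probesets, the difference between their log2 changes was tested by exact two-sided permutation over the 6 arrays, where 0.1 is the smallest p the design allows. The log2 change of probeset A1_at exceeded that of S1_at by 0.47 and that of S1_a_at by 0.25 (exact p = 0.1 for both). That of A1_a_at exceeded the change of S1_at by 0.32 (exact p = 0.1). The other 3 pairs had exact p-values from 0.2 to 0.4, and after adjustment over the 6 pairs the p-values were 0.2 to 0.4. This test could not have passed 0.05 with 6 arrays, and no other test of these differences was run.

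**Figure D1:**
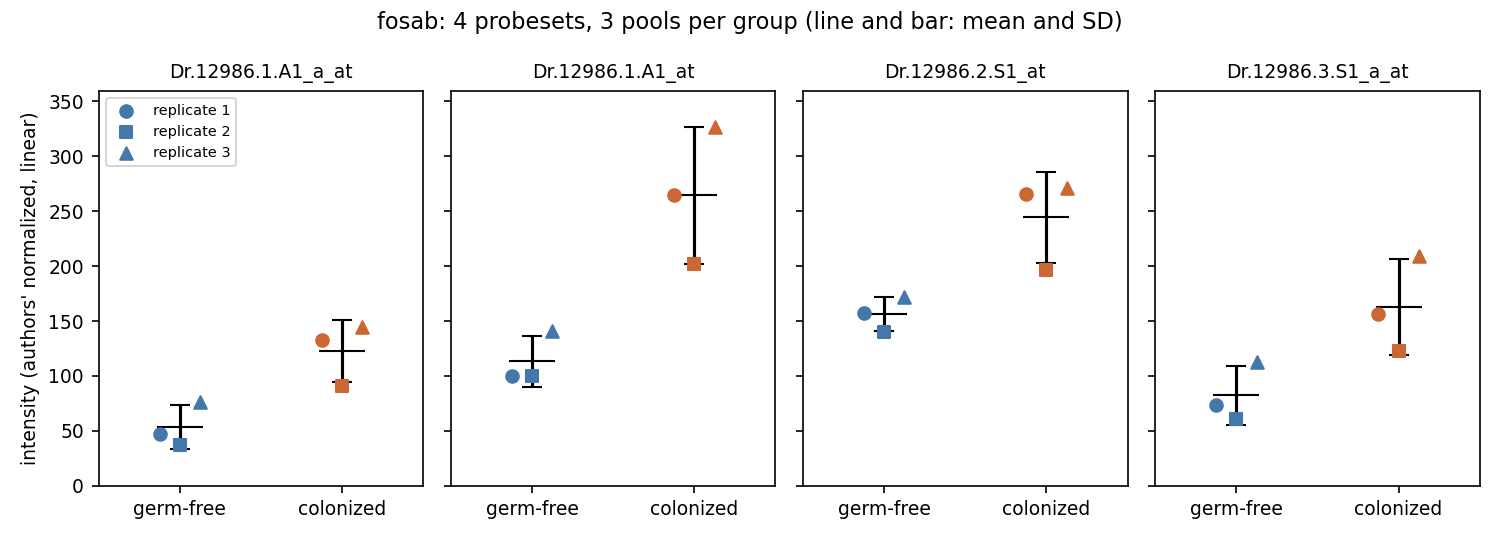
Intensity (linear, as normalized by the authors) of the 4 fosab probesets in 3 germ-free and 3 colonized pools. Marker shapes give the replicate number within a group, by which the labels do not pair pools. The line and bar give mean and SD. On each probeset the 3 colonized pools lie above the 3 germ-free pools; the highest of the latter is replicate 3.

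The other Fos family genes on the array were fosl2 and fosl1b, which code for Fos-related proteins that also dimerise with Jun. On the fosl2 probeset ending in S1_at the intensity was 126, 92.5 and 135 in germ-free pools and 214, 194 and 170 in colonized pools. The groups were apart, and the log2 difference of 0.59 ± 0.13 was just outside the threshold (limma adjusted p = 0.0580). The further fosl2 probesets did not separate the groups. The other two end in A1_at. One had 326, 327 and 234 in germ-free and 382, 436 and 321 in colonized pools, a log2 difference of 0.33 ± 0.15 (limma adjusted p = 0.366). The other had 90.5, 92.5 and 96.4 against 141, 118 and 89.9, with colonized replicate 3 below all germ-free pools. Its log2 difference was 0.23 ± 0.13, with a 95% interval from -0.05 to 0.51 (limma adjusted p = 0.475). The fosl1b probeset was the only one of the 17 with a negative difference. It had 40.8, 42.3 and 41.8 in germ-free and 45.1, 41.5 and 30.3 in colonized pools. Its log2 difference was -0.06, with a 95% interval from -0.28 to 0.16. The fosl1b probeset was dim, with means of 41.6 and 39.0, below the limit of 50 used to leave out dim probesets. Its SE was 0.126 with 16 added before the logarithm and 0.049 with 100 added, so the interval depends on this constant. It does not show absence of a change. With dim probesets left out 15 of the 17 remained, all with a positive difference.

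All 4 probesets of the Jun genes, the partners of Fos in AP-1, had groups that did not overlap. For junbb the germ-free pools had 162, 170.0 and 217 and the colonized pools 296, 282 and 328. The means were 183 ± 29.9 and 302 ± 23.2, a log2 difference of 0.64 ± 0.12 (limma adjusted p = 0.0251). Its paralog junba had 145, 167 and 138 in germ-free and 205, 219 and 193 in colonized pools, with a log2 difference of 0.39 ± 0.10 that was not called (limma adjusted p = 0.110).

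The jun gene codes for c-Jun, which is also activated by Jun N-terminal kinases. On jun probeset S1_at the intensity was 122, 100.1 and 124 in germ-free pools and 188, 157 and 206 in colonized pools. The log2 difference of 0.55 ± 0.12 fell almost on the threshold and was not called (limma adjusted p = 0.0501). On the jun probeset A1_at it was 254, 264 and 286 against 387, 334 and 409.5, a log2 difference of 0.44 ± 0.11 (limma adjusted p = 0.0763). Both jun probesets ranked the colonized pools alike, with replicate 2 lowest and replicate 3 highest, as the fosab probesets did.

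The atf3 gene codes for a stress-induced factor of the ATF/CREB family that can pair with Jun proteins. Its colonized pools lay within a narrow range, at 179, 183 and 181, above germ-free pools at 132, 119 and 141. The log2 difference of 0.39 ± 0.09 was not called (limma adjusted p = 0.0809).

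The egr genes code for zinc finger factors; egr1 is a classical target of serum response factor, and egr2b is known from hindbrain patterning. On egr1 probeset S1_s_at, whose ending marks probes that may match more than 1 gene, the germ-free pools had 326, 220.3 and 261 and the colonized pools 288, 294 and 339. On S2_at they had 123, 64.5 and 130.0 against 127, 111 and 138. The groups overlapped on both, and germ-free replicate 2 was the lowest of the 6 pools on each. The log2 differences were 0.18, with a 95% interval from -0.12 to 0.48, and 0.22, with an interval from -0.18 to 0.62. The egr2a probeset had 45.4, 50.2 and 42.8 against 53.2, 40.2 and 52.5, and egr2b 68.0, 76.2 and 83.3 against 86.7, 67.9 and 81.9. Their log2 differences were both 0.04, with 95% intervals from -0.17 to 0.25 and from -0.19 to 0.26. The egr2a probeset was dim too, with means of 46.1 and 48.6, below the limit of 50. Its SE was 0.120 with 16 added before the logarithm and 0.051 with 100 added, so its interval does not show absence of a change.

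The intervals of egr1 reach up to 0.48 on S1_s_at and 0.62 on S2_at. A change the size of that of junba (0.39) or of jun A1_at (0.44) is thus not set aside by these arrays. One the size of that of jun S1_at (0.55) lies inside the interval of egr1 S2_at only. The log2 change of fosab probeset A1_at exceeded that of egr1 S1_s_at by 0.84 and that of egr1 S2_at by 0.80; these pairs were chosen after their values were seen, so no p is given.

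**Figure D2:**
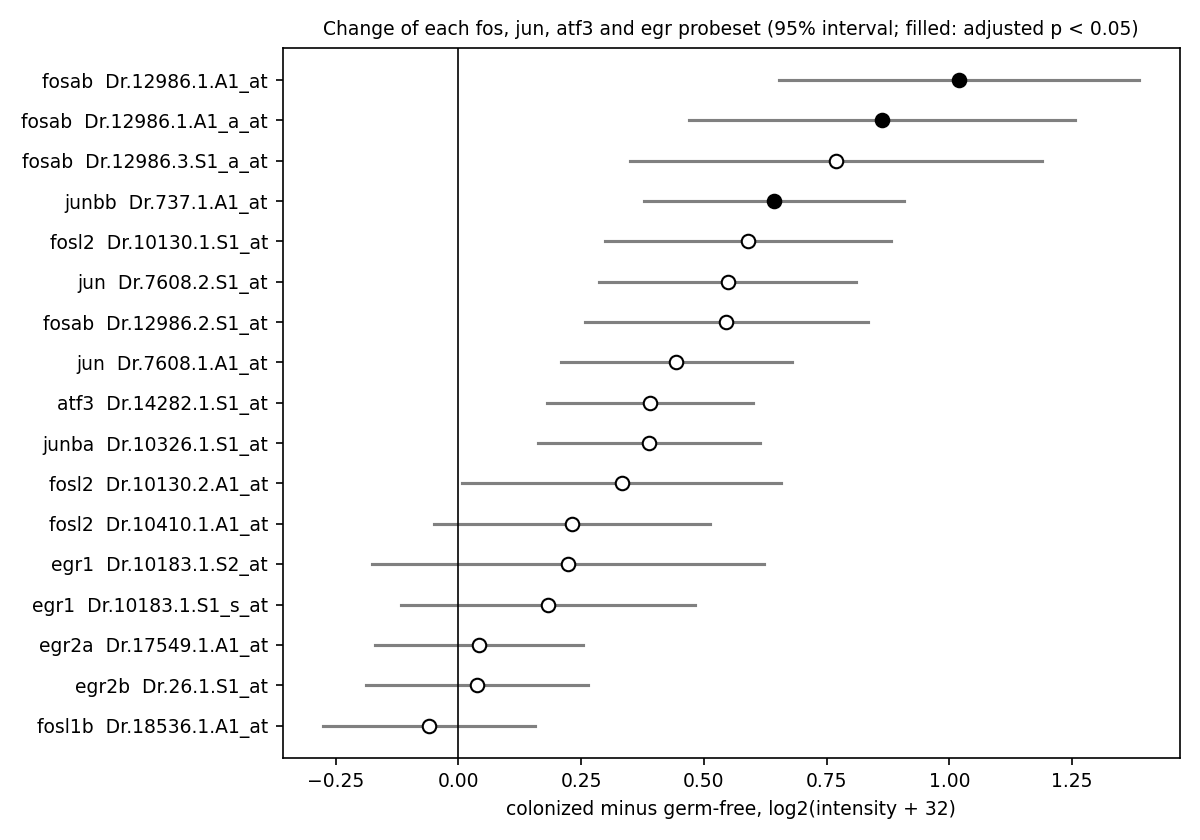
Difference between colonized and germ-free pools on the log2(intensity + 32) scale for each of the 17 probesets, with 95% intervals from limma; filled points have an adjusted p under 0.05. The 2 called fosab probesets and junbb are filled, and the fosab probesets span 0.55 to 1.02. The egr probesets, fosl1b and the fosl2 probeset with the smallest difference have intervals that include 0. Of these, fosl1b and egr2a are dim, with means below 50 in both groups.

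The pools of a group differed from each other in these genes. Of the 17 probesets, 12 had their highest germ-free value in replicate 3, where 37.2% of all probesets did. In replicate 2 the number was 4, where 22.5% of all did, and in replicate 1 it was 1, where 40.4% did. The lowest germ-free value was in replicate 2 for 8 of the 17, where 47.5% of all probesets had theirs. Among the colonized, 10 of the 17 were lowest in replicate 2, where 34.4% of all probesets were, and 9 highest in replicate 3, where 44.7% were. The counts of 8 and 9 are near the shares of all probesets. After each probeset was centred on its own mean, the median of the 17 was -0.20, -0.33 and -0.11 in germ-free replicates 1, 2 and 3 and 0.26, 0.09 and 0.23 in colonized replicates 1, 2 and 3 (log2 scale). Germ-free replicate 3 was thus the germ-free pool nearest to the colonized pools, and colonized replicate 2 the colonized pool nearest to the germ-free ones.

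**Figure D3:**
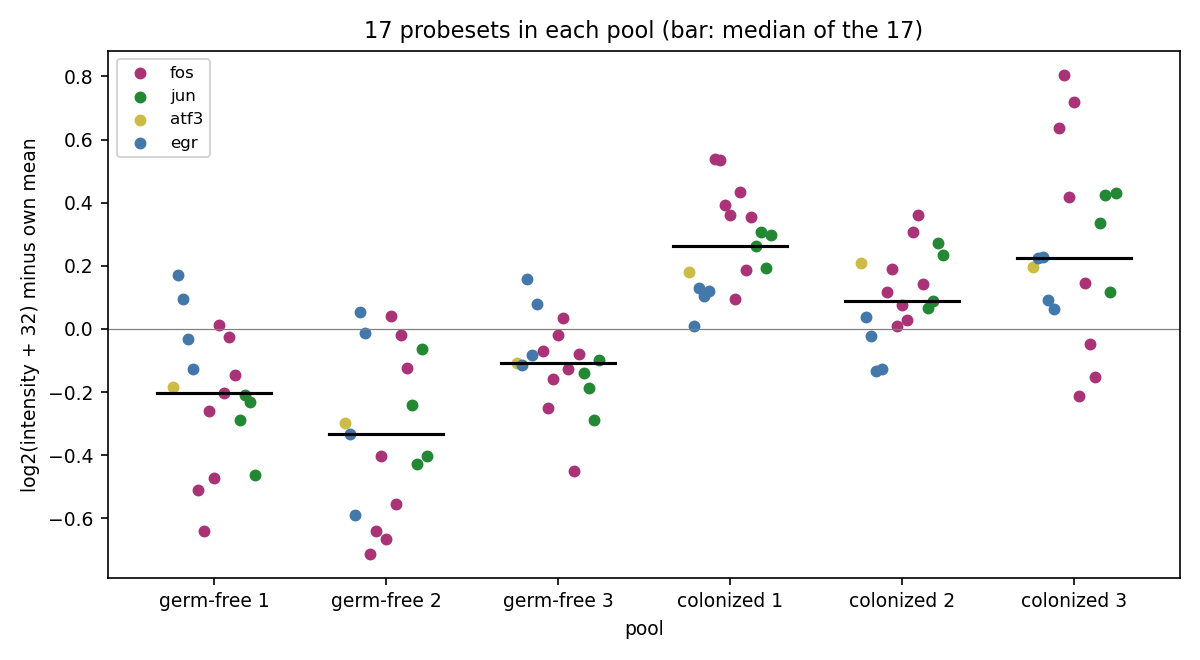
Each point is 1 of the 17 probesets in 1 pool, as log2(intensity + 32) minus that probeset's mean over the 6 pools, coloured by gene family; bars give the median of the 17. The medians are below 0 in the 3 germ-free pools and above 0 in the 3 colonized pools, between -0.33 and 0.26, while egr points spread on both sides of 0 in each group.

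The number of calls depended on single pools, among all probesets as well as among the 17. Of all probesets, 199 were called higher with all 6 arrays and 326 without germ-free replicate 3. Without germ-free replicates 1 and 2 in turn the numbers were 148 and 138. Without colonized replicates 1, 2 and 3 in turn they were 115, 98 and 147. Without germ-free replicate 3, 9 of the 17 probesets were called higher: all 4 of fosab, both of jun, 1 of fosl2, junbb and atf3. Without germ-free replicate 1, germ-free replicate 2 or colonized replicate 1 the number was 0, without colonized replicate 3 it was 1 and without colonized replicate 2 it was 2. The limma adjusted p of fosab A1_at was 0.0548, 0.0541 and 0.0676 in the first 3 of these, and its log2 difference stayed between 0.87 and 1.18 on leaving out any 1 array. That of junbb stayed between 0.57 and 0.75, and among the fits that left out 1 array it was called only in that without germ-free replicate 3 (adjusted p = 0.00268); without any other array the adjusted p was 0.0793 to 0.109. With all 6 arrays, the jun probeset S1_at was also called after quantile normalization (adjusted p = 0.0394), with 100 added before the logarithm (0.0463), with dim probesets left out (0.0446), without the intensity trend (0.0454) and with array weights (0.0366), but not with 16 added (0.0515).

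**Figure D4:**
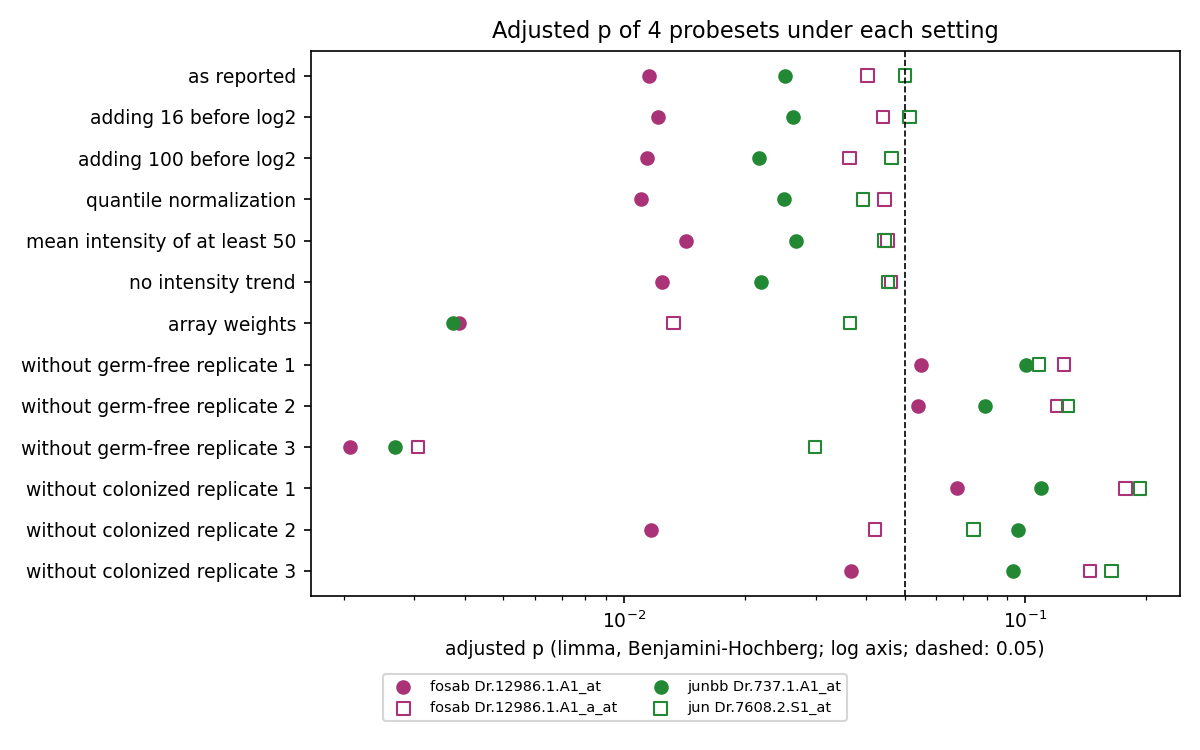
Adjusted p (limma, log axis) of 2 fosab probesets, junbb and 1 jun probeset with all arrays and under the alternatives. The alternative with the replicate number as a block is not drawn. The dashed line is 0.05. Without germ-free replicate 3 all 4 lie to the left of the line, and without any one of germ-free replicate 1, germ-free replicate 2 and colonized replicate 1 all 4 lie to its right.

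Lists of related genes, each counted with 1 probeset per gene, were set beside the members. Of basic leucine zipper factors that pair with or resemble AP-1, such as the ATF, CREB, Maf and Jdp genes, 18 of 42 listed were measured. By limma 0 were called in either direction, where 1.7% of all probesets were. At an unadjusted p under 0.05 in either direction the number was 6, where 13.2% of all probesets passed, and the median log2 difference of the list was 0.10. Another list held the MAP kinases, their activators and brakes and the serum response factor genes. These carry signals to the promoters of immediate early genes mostly by phosphorylation. Of this list 29 were measured and 0 called in either direction, where 1.7% of all probesets were. Here 3 had an unadjusted p under 0.05 in either direction, a share no higher than that of all probesets, and the median was 0.11. The gene mapk14b had 3 probesets, and 1 that the list does not count was called. With 1.7% of all probesets called, 0 calls in lists of 18 and 29 genes do not set these lists apart.

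Of 51 other immediate early genes, 10 were called higher, where 1.28% of all probesets were, and 1 lower, where 0.413% were. The list was chosen with earlier results of these data known and holds socs3, NF-kB inhibitor and C/EBP genes. Its count is therefore not independent of those results. The list median was 0.26, beside 0.02 for all tested probesets. The largest differences were those of the cytokine signalling suppressor socs3a (log2 difference 1.70), cebpd (1.24), the NF-kB inhibitor nfkbiaa (1.15) and cebpb (1.00); cebpb and cebpd code for C/EBP transcription factors. The gene cebpb rose from 270.3, 241 and 412 in germ-free pools to 672, 658 and 577 in colonized pools (limma adjusted p = 0.0130). The single fall was that of hbegfa, for a heparin-binding ligand of the EGF receptor, from 177 ± 7.62 to 116 ± 13.6 (limma adjusted p = 0.0396). Without germ-free replicate 3 the calls numbered 19, and without germ-free replicate 1 or 2 they numbered 7. Without colonized replicate 1 they numbered 5 and without colonized replicate 2 they numbered 4. Among all probesets the calls numbered 263 with all arrays and 410 without germ-free replicate 3. They numbered 173 and 200 without germ-free replicates 1 and 2, and 137 and 114 without colonized replicates 1 and 2.

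A pair of genes of this list, picked after their values were seen, had the germ-free order of 3 of the 4 fosab probesets, with replicate 2 lowest and replicate 3 highest. The MAP kinase phosphatase gene dusp1 had 242, 202 and 434 in germ-free and 581, 438 and 536 in colonized pools, a log2 difference of 0.82 ± 0.22 that was not called (limma adjusted p = 0.120). The antiproliferative gene btg2 had 303, 219 and 497 against 663, 508 and 604 (limma adjusted p = 0.134). In both, germ-free replicate 3 lay close below the lowest colonized pool. Of the 51 genes, 34 had their highest germ-free value in replicate 3, where 37.2% of all probesets had theirs. Of the 28 measured markers of larval tissues, 17 had theirs there too.

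Of 19 measured genes known as AP-1 targets in mammals, 6 were called higher, where 1.28% of all probesets were. Only hbegfa was called lower, where 0.413% of all probesets were, and the list median was 0.37. Of the called genes, the matrix metalloproteinases mmp9 (2.39) and mmp13a (2.02) rose most. They were chosen with their rise already known. Next came the epithelial keratin krt18a.1 (0.60) and the growth factor tgfb1a (0.54). The difference of dusp1 (0.82), which was not called, was larger than those of krt18a.1 and tgfb1a. The tgfb1a probeset was dim, with means of 22.1 and 46.1. Its log2 difference was 0.72 with 16 added before the logarithm and 0.26 with 100 added. Lists share members: the prostaglandin synthase gene ptgs2a, hbegfa and dusp1 are counted in this list and in the one above, which also holds srfa of the MAP kinase list. On leaving out any array but germ-free replicate 3, the calls numbered 3, or 2 without colonized replicate 2. Calls among all probesets fell in these fits too, from 263 to between 114 and 210.

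Markers of neutrophils and macrophages, cells in which Fos and Jun genes are also transcribed, also differed between the groups. Of 21 measured, 9 were called higher, where 1.28% of all probesets were, and 12 were not called. The gene mpx is among the 12, though 1 of its 4 probesets was called. The largest rises of called genes were those of mmp9 (2.39), mmp13a (2.02), lyz (1.27) and lcp1 (0.88). The genes csf1ra and cd74a had negative differences that were not called. The summed intensity of the markers was 3540, 3152 and 3536 in germ-free replicates 1, 2 and 3. In colonized replicates 1, 2 and 3 it was 4694, 5351 and 6232. The brightest marker, apoc1, weighs most in these sums and was not called (limma adjusted p = 0.790). It had 1721, 1525 and 1694 in germ-free and 1403, 1661 and 2552 in colonized replicates 1, 2 and 3. The lowest mean among the markers was 27.8, where 2886 to 3111 probesets of each array lay below 32. Detection was not tested. The genes mmp9 and mmp13a are counted in the list of AP-1 targets too. The part of these cells in the differences of fosab and junbb was not tested.

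Genes of stress and glucocorticoid response, of which sgk1 is also in the list of other immediate early genes, were counted because handling and cortisol act on immediate early genes. Of 20 measured, 18 were not called and 2 were called higher, where 1.28% of all probesets were. The 2 were the heat shock gene hsp70.3 and ddit4, an inhibitor of TOR signalling, and the list median was 0.29. The summed intensity of the 20 was 7367, 5929 and 9692 in germ-free replicates 1, 2 and 3. In colonized replicates 1, 2 and 3 it was 10869.6, 9731 and 9779. Germ-free replicate 3 was thus close to the colonized pools. Of the 20, 15 had their highest germ-free value there, where 37.2% of all probesets had theirs. Without it 8 were called, with array weights 4, and without any other array but colonized replicate 2 the number was 1. Among all probesets 263 were called in the main fit, 410 without germ-free replicate 3 and 569 with array weights. Without any other array 114 to 210 were. As an example picked after its value was seen, fkbp5, a co-chaperone of the glucocorticoid receptor, had 650.0, 376 and 1081 in germ-free and 1398, 1096 and 1150.3 in colonized pools (limma adjusted p = 0.199). The part of handling or stress in the differences of fosab and junbb was not tested.

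**Figure D5:**
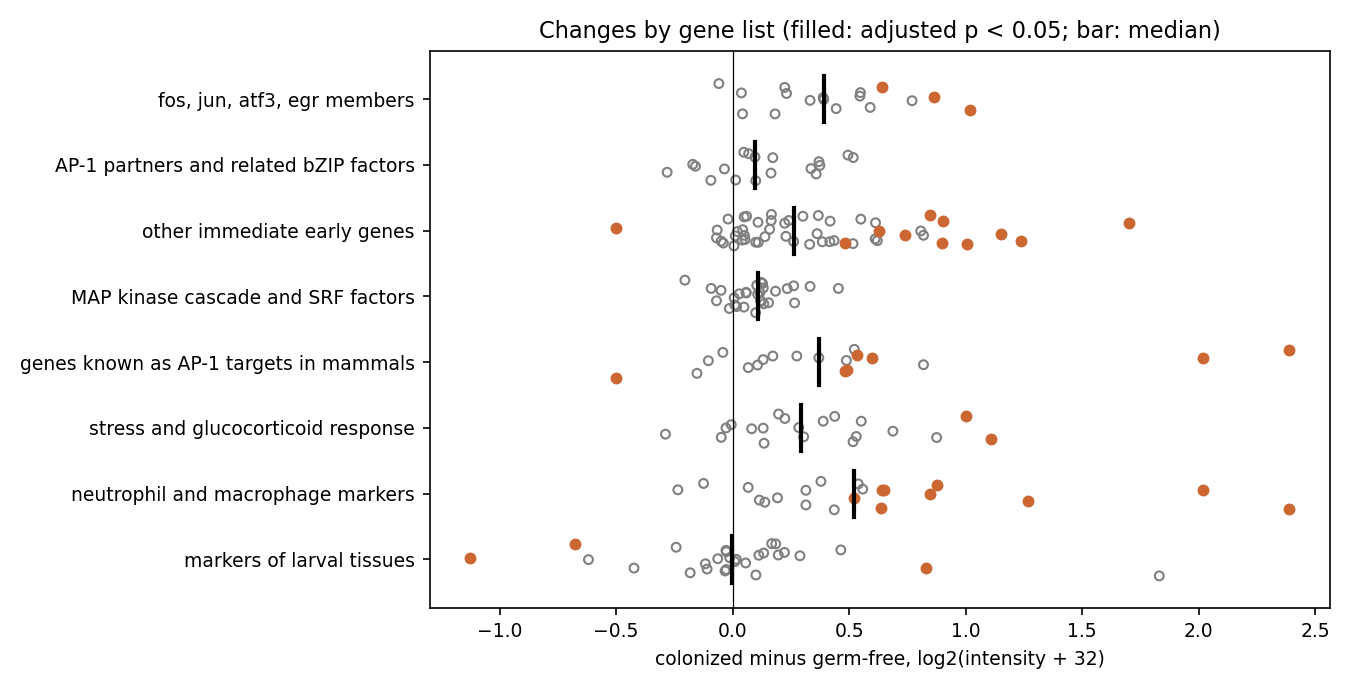
Difference between colonized and germ-free pools, log2(intensity + 32), for the 17 probesets (top) and for each gene of 7 related lists; filled points have an adjusted p under 0.05, and bars are medians. The bars of the bZIP and MAP kinase lists lie at 0.10 and 0.11, that of the 17 probesets at 0.39 and that of the neutrophil and macrophage markers at 0.52.

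The probesets most like fosab A1_at were sought by the root mean square distance over the 6 arrays between log2 values centred on each probeset's own mean, among 5411 named probesets with a mean intensity of at least 100, the 17 members left out. The nearest was hsp70.3, at a distance of 0.11, with 66.6, 56.7 and 86.1 in germ-free and 201, 111 and 218 in colonized pools. The ending of its probeset, _x_at, marks probes that may match other sequences, as the closely related heat shock genes have. Next came a plasminogen probeset (plg, 0.12), the C-reactive protein gene crp3 (0.13), a second plg probeset (0.14) and the cytochrome gene cyp1a (0.17). All 5 were called higher, so the group difference itself is part of their likeness to fosab. Of the members, fosab A1_a_at was at 0.12, fosab S1_a_at at 0.15 and fosab S1_at at 0.26. The distance of junbb was 0.23, with 25 of the 5411 nearer, those of jun 0.27 and 0.32, and those of egr1 0.46 and 0.48. The farthest member was fosl1b, at 0.61.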

How the data were processed

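Total RNA of pooled whole larvae was labelled by in vitro transcription and hybridised to 1-colour Affymetrix zebrafish arrays, per the labels' protocols. The deposited values are intensities that the authors normalized by the invariant set method and summarised by the PM-MM model in dChip, per the series' design text; such scaling takes out a shift common to the bulk of transcripts. Of 15617 probesets, 115 controls were left out. The platform annotation gave 1 symbol for 10795 probesets, several for 135 and none for 4572; symbols were brought up to date by Entrez number from the RefSeq gene table of assembly GRCz12tu, and 1 probeset per gene, that with the highest mean log2 value, entered list counts.

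Values were transformed to log2(intensity + 32), which understates changes of dim probesets, and fitted with the group as the only term over all 6 arrays (limma 3.58.1 in R 4.3.3, lmFit and eBayes with an intensity trend, two-sided, Benjamini-Hochberg). Adjusted p-values of probesets come from this fit, which was tested on simulated data, unless an alternative or a left-out array is named beside them. For arrays, their number limits the precision. Groups and replicate numbers came from the labels. Lists are described by counts and medians only. Members and lists were chosen with earlier results of these data known. Named were all members, of each list up to 4 called genes with the largest change, and the 5 probesets nearest to fosab. Tissue markers named as examples, dusp1, btg2, fkbp5, apoc1, hbegfa, mpx, mapk14b, csf1ra and cd74a lie outside this rule. They were picked after their values were seen. The genes ptgs2a, srfa and sgk1 are named only as members shared by lists. Promoter and protein sequences were not used here.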

Additional observations from a re-analysis of the deposited data

How the results depend on the processing

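The alternatives were 16 or 100 added before the logarithm, quantile normalization, only probesets with a mean intensity of at least 50, no intensity trend, array weights, the replicate number as a block, and leaving out each array in turn. All 3 calls among the 17 probesets were kept in every alternative that used all 6 arrays, and no call reversed; the median log2 difference of all probesets stayed between -0.01 and 0.03. Of all probesets 263 were called, 569 with array weights and 114 to 410 on leaving out 1 array. Of the calls, 75.67% were higher, and 61.41% after quantile normalization. Of the 17 probesets 3 were called higher, 9 with array weights and 0 to 9 on leaving out 1 array. On leaving out 1 array, calls ranged from 0 to 1 for bZIP factors and 4 to 19 for other immediate early genes. For AP-1 targets they ranged from 2 to 7 and for stress genes from 1 to 8 (4 with array weights). For neutrophil and macrophage markers they ranged from 7 to 10 and for tissue markers from 2 to 5. They stayed at 0 for MAP kinase genes, on the probesets that the list counts. The log2 change of fosab A1_at minus that of fosab S1_at ranged from 0.34 to 0.55 over its alternatives.

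The labels do not say that pools with the same replicate number are paired. The correlations of their deviations from the group means were -0.08, 0.10 and 0.07, which cannot settle whether they are. With the replicate number as a block 274 probesets were called in all, 6 of the 17 probesets and 5 tissue markers; the 6 were all 4 of fosab (S1_at at an adjusted p of 0.0415 and S1_a_at at 0.00488), junbb and jun S1_at (0.0308). With 3 arrays a group, the adjusted p-values of jun, of fosl2 S1_at and of the further fosab probesets do not show absence of a change.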
